A study of Mus musculus with 8 samples.

Results

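The subject here is 330 long stretches of the mouse genome that lay under an unbroken H3K4me peak in all 4 ChIP libraries of embryonic cortex. They were defined by the peak calls themselves: the peaks of each library on chromosomes 1 to 19 were merged, the 4 lists were intersected, and shared intervals of at least 10000 bp were kept. The 330 stretches were 0.566% of the 58315 shared intervals and held 4.85 Mb of the 88.7 Mb shared by the 4 libraries, or 5.47% of it. Their number, length and coverage are what chose them, so these are described without a test.

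The study mapped H3K4me in whole cortex lysate of mouse embryos at stage E15.5 by ChIP-seq, in which an antibody recovers DNA bound to a modified histone and that DNA is sequenced. The cKO group (2 libraries) had the genotype Emx1Ires-Cre; Prdm16flox/flox, and the WT group (2 libraries) was Prdm16 flox/flox, without Cre. Both groups therefore carried the floxed Prdm16 alleles. The chromatin was native and was cut with micrococcal nuclease. The antibody is listed as anti-H3K4me and is sold as specific for the monomethylated form. Emx1-Cre acts in the progenitors of the dorsal cortex and in the cells they form, while a whole lysate also holds interneurons, vessels, microglia and other cells without that Cre activity. A longer peak in bulk tissue can come from more cells that carry the mark or from more mark per cell, and these cannot be told apart. Whether a library came from 1 embryo or a pool is not stated in the labels, and the 4 input libraries were not analysed here.

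Methylation of lysine 4 of histone H3 is placed on nucleosomes at active and primed regulatory DNA. The monomethylated form marks enhancers and the shoulders of active promoters, while the trimethylated form sits at the promoter itself. PRDM16 is a zinc-finger transcription factor with a PR domain, expressed in radial glia, the dividing neural progenitors of the cortex. In other cells, long stretches of active histone marks are known from genes that define cell identity.

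To show what kind of sequence lies inside the stretches, promoters were read from RefSeq (GRCm38.p6, the assembly that mm10 represents) as windows of 300 bases, with 250 before and 50 after an annotated start. A gene can have several starts, some of them inside its span. The first 3 below are those of genes in the longest stretches and largest clusters whose window fell wholly inside a stretch. The Nfix and Prdm16 windows were added after their values were seen, because the longest stretch touches Nfix and Prdm16 is the deleted gene. Each sequence is written 5′ to 3′ on the gene's own strand, and capitals mark CG dinucleotides.
Lyl1: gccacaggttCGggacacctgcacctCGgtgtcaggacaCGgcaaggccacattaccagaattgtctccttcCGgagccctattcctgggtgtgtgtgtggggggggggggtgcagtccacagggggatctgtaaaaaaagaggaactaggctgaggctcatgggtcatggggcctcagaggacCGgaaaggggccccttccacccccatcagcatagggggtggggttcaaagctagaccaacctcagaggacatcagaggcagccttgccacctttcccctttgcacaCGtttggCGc
Coro2b: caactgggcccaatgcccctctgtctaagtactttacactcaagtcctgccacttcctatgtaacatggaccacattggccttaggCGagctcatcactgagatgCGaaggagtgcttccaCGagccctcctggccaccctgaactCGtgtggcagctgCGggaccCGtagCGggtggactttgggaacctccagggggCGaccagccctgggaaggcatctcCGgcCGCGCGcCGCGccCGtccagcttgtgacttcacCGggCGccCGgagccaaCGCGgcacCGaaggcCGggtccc
Gse1: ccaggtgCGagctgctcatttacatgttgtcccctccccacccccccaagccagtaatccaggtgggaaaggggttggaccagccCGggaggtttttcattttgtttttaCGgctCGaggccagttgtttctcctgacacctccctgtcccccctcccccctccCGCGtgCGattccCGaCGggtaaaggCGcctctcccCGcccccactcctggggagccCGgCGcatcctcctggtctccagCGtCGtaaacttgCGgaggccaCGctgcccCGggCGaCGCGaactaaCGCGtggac
Nfix: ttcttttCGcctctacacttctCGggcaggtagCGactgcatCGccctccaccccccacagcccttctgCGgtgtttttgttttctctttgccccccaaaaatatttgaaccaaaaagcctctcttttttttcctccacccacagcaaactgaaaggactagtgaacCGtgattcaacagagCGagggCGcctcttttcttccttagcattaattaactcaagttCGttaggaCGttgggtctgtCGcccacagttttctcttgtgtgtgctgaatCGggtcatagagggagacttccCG
Prdm16: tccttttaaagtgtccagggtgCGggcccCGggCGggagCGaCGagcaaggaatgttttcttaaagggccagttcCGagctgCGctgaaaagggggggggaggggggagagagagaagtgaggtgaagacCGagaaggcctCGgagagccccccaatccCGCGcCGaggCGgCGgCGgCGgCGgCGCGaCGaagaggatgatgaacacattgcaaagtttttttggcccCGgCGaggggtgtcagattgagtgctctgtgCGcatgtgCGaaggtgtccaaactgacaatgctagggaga
Lyl1, a basic helix-loop-helix factor known from blood cells, has its window at chr8:84701207-84701506 on the plus strand, inside the longest stretch. It held 7 CG dinucleotides, at an observed-to-expected ratio of 0.261. The window of Coro2b, a coronin that binds actin, is at chr9:62536995-62537294 on the minus strand and held 22, at a ratio of 0.714. The Gse1 window is at chr8:120535607-120535906 on the plus strand and held 23, at a ratio of 0.766. It belongs to an internal start, since the gene's span begins at chr8:120228501. The Nfix window is at chr8:84780033-84780332 on the minus strand and held 13, at a ratio of 0.739. It lies not in the longest stretch but in the next one at Nfix, at chr8:84774717-84798730. It too belongs to an internal start, since the gene's span on this strand begins at chr8:84801238. The Prdm16 window is at chr4:154636824-154637123 on the minus strand and held 24, at a ratio of 0.939. Of these 5 windows, Lyl1's was poor in CG, and the other 4 had a ratio above 0.6.

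Counted per interval, the stretches held promoters about as often as the next longest shared intervals and more often than shared intervals at large. A whole promoter window of a coding gene lay inside 54 of the 330 stretches (16.4%). The same held for 56 of the 330 next longest shared intervals (17.0%) and 5.45% of all shared intervals of at least 200 bp. A longer interval has more room for a whole window, and the part of length in these shares was not tested. Median lengths were 12.6 kb for the stretches and 1.04 kb for all shared intervals of at least 200 bp. Per Mb, fewer of the stretches held a window: 54 in 4.85 Mb. The next longest had 56 in 2.87 Mb, and all shared intervals of at least 200 bp had 3107 in 88.5 Mb. These numbers count intervals and not windows, and a Mb holds fewer intervals when they are longer. Windows inside a stretch (75 windows of 55 genes) had a median of 16 CG dinucleotides and a median observed-to-expected ratio of 0.612, against 13 and 0.567 over 21263 windows of all coding genes. Windows that lay outside every stretch but belonged to a gene touched by one (197 windows of 141 genes) had a median of 21 and a ratio of 0.733. The E-box CAGCTG, which is its own reverse complement, was found in 14.7% of the windows inside a stretch, 18.3% of those outside and 15.6% of all windows. The nuclear factor I core TTGGCA, searched on both strands, was found in 12%, 9.64% and 13.1% of the same 3 classes. The search motifs do not overlap each other. These matches describe letters in the windows only.

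The stretches ran from 10003 to 71412 bp, with a median of 12.6 kb. Most were near the lower limit: 235 measured under 15 kb, 52 from 15 to 20 kb, 32 from 20 to 30 kb and 11 were 30 kb or more. The 3 just inside the limit touched Zfp532 (10003 bp), Msi1 (10023 bp), which encodes an RNA-binding protein of neural progenitors, and Chst15 (10031 bp). The 3 just outside it touched Tnk2 (9989 bp), Macrod1 (9979 bp) and the homeobox gene Lhx2 (9969 bp). Macrod1 and Lhx2 also had other intervals that passed. The 330 next longest intervals ran from 7823 to 9989 bp, with a median of 8.56 kb, and serve below as the closest set for comparison.

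The lists the stretches come from differed in extent. The cKO libraries held 79383 and 81447 peaks over 147 and 165 Mb, and the WT libraries 74380 and 65740 peaks over 129 and 113 Mb. Peaks of 10 kb or more numbered 733 and 1039 in the cKO libraries, against 567 and 475 in the WT libraries. These long peaks held 7.49% and 9.52% of the covered bases in cKO and 6.48% and 6.15% in WT. The stretches sat in 321 peaks of each cKO list, and in 324 and 328 peaks of the WT lists, so few stretches shared a peak. Of the 10 kb peaks, 43.8% and 30.9% held a stretch in cKO, against 57.1% and 69.1% in WT. The WT lists were thus the ones that limited membership. No read counts come with the peaks, so sequencing depth is unknown, and the part of depth or of precipitation efficiency in any genotype difference given here was not tested.

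The longest stretch measured 71.4 kb, at chr8:84698247-84769658, and touched Nfix, Lyl1 and Trmt1. Nfix encodes a nuclear factor I protein that acts in the step from radial glia to differentiated cells. The peak that contained it was 74.8 and 101 kb wide in the cKO libraries, against 72.1 and 71.7 kb in the WT libraries. In cKO replicate 2 the same peak ran on through the next stretch at Nfix, at chr8:84774717-84798730 (24 kb), which the other 3 libraries held in peaks of 24.1 to 25 kb.

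**Figure D1:**
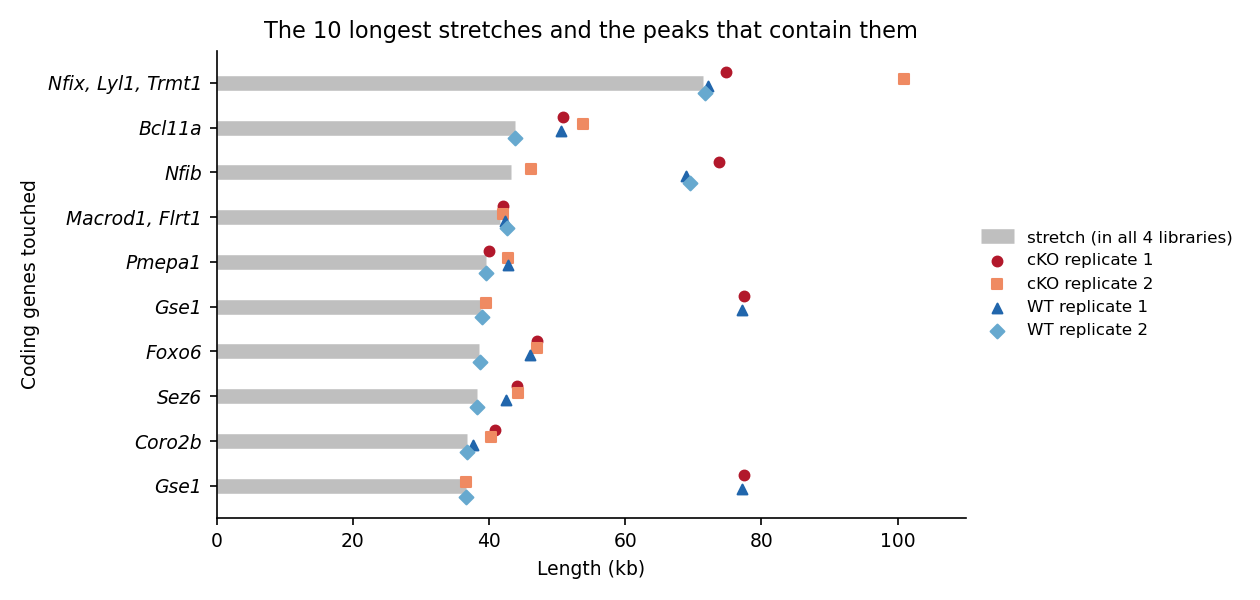
Grey bars give the length in kb of the 10 longest stretches, by the coding genes they touch, and points give the width of the peak that contains each stretch in each library, cKO replicates 1 and 2 and WT replicates 1 and 2. At Nfix the peak of cKO replicate 2 is 101 kb, and at both Gse1 stretches replicate 1 of either genotype has a single peak of 77.5 kb (cKO) or 77.2 kb (WT).

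Bcl11a, a zinc-finger factor of cortical projection neurons, held a stretch of 43.8 kb at chr11:24084350-24128161. Its peak was 50.9 and 53.8 kb in cKO, against 50.6 and 43.8 kb in WT. Nfib, another nuclear factor I gene, held one of 43.2 kb at chr4:82451510-82494726. Here the cKO peaks were 73.7 and 46.2 kb and the WT peaks 68.9 and 69.5 kb, so 1 cKO library had the narrowest peak of the 4.

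Macrod1, which encodes an ADP-ribose hydrolase, and Flrt1, an adhesion and guidance gene that lies inside it, shared a stretch of 41.6 kb at chr19:7126255-7167830. Its peaks were nearly of 1 width in every library, 42.1 and 42.1 kb in cKO and 42.4 and 42.6 kb in WT. Pmepa1, an inhibitor of TGF-beta signalling, had a stretch of 39.6 kb at chr2:173235382-173274960, with peaks of 40.0 and 42.7 kb in cKO and 42.7 and 39.6 kb in WT. The cKO peaks were narrower than the WT peaks by under 1 kb at Macrod1 and Flrt1, and the genotypes overlapped at Pmepa1.

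Gse1 held 2 of the 10 longest, of 38.8 kb at chr8:120490422-120529250 and 36.6 kb at chr8:120530786-120567348. A single peak joined them in replicate 1 of each genotype, 77.5 kb in cKO and 77.2 kb in WT, and in replicate 2 they lay in separate peaks. The join therefore followed the replicate number and not the genotype.

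Foxo6, a forkhead factor gene, had a stretch of 38.5 kb at chr4:120246953-120285499, in peaks of 47.0 and 47.0 kb in cKO and 46.0 and 38.6 kb in WT. The stretch at Sez6, a gene of dendrite growth in cortical neurons, measured 38.2 kb at chr11:77929097-77967250, with peaks of 44.1 and 44.3 kb in cKO and 42.5 and 38.2 kb in WT. Coro2b, whose promoter is printed above, had a stretch of 36.7 kb at chr9:62508677-62545418, in peaks of 40.8 and 40.3 kb in cKO and 37.6 and 36.7 kb in WT. At these 3 loci, and at the Nfix and Bcl11a stretches above, both cKO peaks were wider than both WT peaks. That order held at 41.3% of all shared intervals of at least 200 bp.

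The stretches lay mostly inside genes. Of the 330, 292 touched a protein-coding gene (88.5%, Wilson 95% interval 84.6 to 91.5%, counting error only), against 281 of the next longest (85.2%) and 63.3% of all shared intervals. A further 25 of the 38 others touched a non-coding gene. The span of 1 coding gene held 222 stretches whole. In all, 265 coding genes were touched, 1.28% of the 20665 on these chromosomes. The touched genes were long, with a median span of 86.1 kb against 17.1 kb for all coding genes, and 43.0% of them exceeded 100 kb against 11.1%. A long gene offers more room for an interval to fall in, and the part of gene length in these shares was not tested.

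Relative to gene starts, the stretches lay downstream more often than over the start. For 215 stretches a start could be placed from the promoter table: 35 covered the most upstream start, 167 lay wholly downstream of it and 13 upstream. The downstream ones began a median of 32.2 kb past the start; 49 began within 10 kb of it and 62 more than 50 kb away. Of the 177 touched genes with a promoter window, 55 had one inside a stretch.

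Around the starts of those 177 genes, peak coverage was highest a few kb into the gene. At 4 kb past the start, 74.6% and 78.0% of the genes had a peak in the cKO libraries and 71.2% and 72.3% in the WT libraries. At the start itself the shares were 52.0% and 60.5% in cKO and 47.5% and 44.1% in WT. At 4 kb before the start they were 27.7% and 29.9% in cKO and 24.3% and 23.7% in WT. Over all 16457 coding genes the shares at the start were 38.4% and 42.6% in cKO and 32.3% and 27.4% in WT, and 4 kb past it they were 11.3% and 13.1% in cKO and 9.53% and 8.44% in WT. The touched genes thus had a dip at the start and a wide shoulder on the gene side. The genes were chosen for holding a stretch, so the height of the shoulder is a description.

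**Figure D2:**
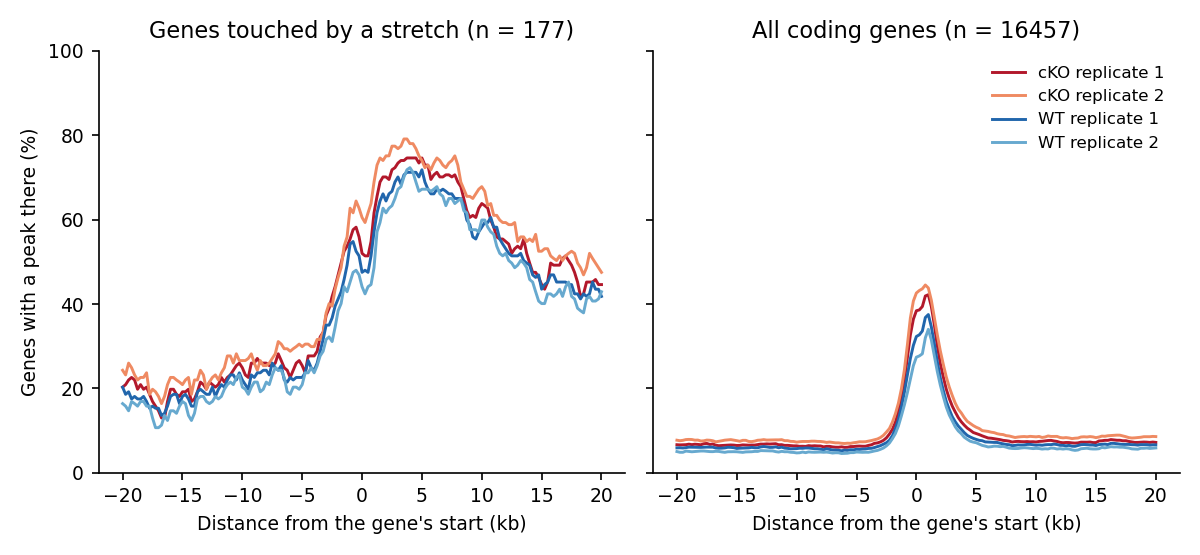
The percentage of genes with a peak at each distance (kb) from the gene's start, in the direction of transcription, is drawn for each of the 4 libraries, for the 177 genes touched by a stretch (left) and for 16457 coding genes (right). The left curves dip at the start, to 52.0% and 60.5% in cKO and 47.5% and 44.1% in WT, and stand at 71.2% to 78.0% in the 4 libraries at 4 kb past it.

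Several genes held more than 1 stretch: 222 had 1, 43 had at least 2 and 16 at least 3. Nfia, a nuclear factor I gene with roles in gliogenesis, had 6 stretches with 90.7 kb in all, 16.8% of its 541 kb span. Gse1 had 5 with 104 kb, Tcf4 (a basic helix-loop-helix partner of proneural factors) 5 with 80.9 kb, and Ttc28 5 with 70.4 kb. Nfib had 4 with 102 kb, which is 47.2% of its 217 kb. Bcl11b, a zinc-finger factor of deep-layer projection neurons, had 3 with 53.4 kb, 57.0% of its 93.7 kb. Nfix had 2 with 89.0 kb, and they covered 92.2% of its 96.5 kb span.

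Prdm16, the targeted gene, held 4 stretches with 72.9 kb in all, 22.7% of its 321 kb. Being covered in both genotypes, they do not check the deletion, since the peak lists say nothing about lost exons. The stretch with the printed promoter, at chr4:154617517-154641933, was in peaks of 25.3 and 24.7 kb in cKO and 24.9 and 24.9 kb in WT. The one at chr4:154591420-154604649, of 13.2 kb, was in peaks of 39.0 and 32.2 kb in cKO and 23.8 and 13.3 kb in WT. Those at chr4:154496704-154517454 (20.8 kb) and chr4:154539847-154558873 (19 kb) were in peaks of 29.5 and 30 kb and of 20.9 and 21.2 kb in cKO, against 20.8 and 21.0 kb and 19.5 and 19.1 kb in WT. Peak width thus separated the genotypes at 3 of the 4 Prdm16 stretches and not at the one over the start, in a genome where 41.3% of all shared intervals of at least 200 bp had both cKO peaks wider than both WT peaks. Pdzrn3, a ubiquitin ligase gene also looked up by name, held no stretch, and its longest shared interval was 8.14 kb.

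Lists of cortical and other genes were then compared with the 1.28% of all coding genes that a stretch touched. Of 25 genes of radial glia, 9 were touched (36%), among them Notch2, Gli3, Cdon and Notch1, and Sox2 lay within 10 kb of one. Of 15 nuclear factor I and SOX genes on chromosomes 1 to 19, 4 were touched: Nfib, Nfia, Nfix and Sox8. Among 20 Notch pathway genes the receptors Notch2 and Notch1 and the target Hes1 were touched (15%), and none of the listed ligands Dll1, Dll3, Jag1 and Jag2 was. Guidance and adhesion genes had 5 of 27 (18.5%), with Flrt1, Epha4, Efnb2 and Plxna2 having the most bases. Wnt signalling had 3 of 22 (13.6%): the secreted inhibitor Sfrp1, the nuclear effector Tcf7l2 and the receptor Fzd9.

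Lists of neurons and their precursors had fewer. Of 18 intermediate progenitor genes, Igsf8 and Mfap4 were touched (11.1%), and of 18 deep-layer genes Nfib and Bcl11b (11.1%). Newborn projection neurons had 1 of 18 (Cntn2, 5.56%), with Neurod2 and Zbtb18 within 10 kb of a stretch, and upper-layer neurons 1 of 17 (Lhx2, 5.88%). Of 26 basic helix-loop-helix, HES and ID genes, Tcf4 and Hes1 were touched (7.69%), and of 15 PRDM genes only Prdm16 (6.67%).

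No gene was touched, or lay within 10 kb of a stretch, in the lists for cortical interneurons (16 genes), oligodendrocyte precursors and astrocytes (14), microglia (15), endothelium and pericytes (15), meninges (13), erythroid cells (9), skeletal muscle and liver (14) and housekeeping (15). The lists overlap (Nfib, Hes1 and Lhx2 each stand in more than 1), differ in gene length and were not tested. Most of the 265 touched genes stand on none of the lists.

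The 38 stretches with no coding gene included some long ones. The longest, 28.1 kb at chr11:113172004-113200053, touched the non-coding gene 2610035D17Rik and was in peaks of 28.2 and 38.4 kb in cKO and 30.1 and 28.6 kb in WT. The next, 25.9 kb at chr7:79509619-79535492, touched Mir9-3hg, the host of a miR-9 precursor, a microRNA of neural progenitors. Only the host gene was touched, and no miR-9 hairpin lay inside a stretch. The peaks that held this stretch were 42.1 and 51.2 kb in cKO, against 41.5 and 26.2 kb in WT. The cKO peaks were both above the WT peaks at Mir9-3hg, by less than 1 kb at the nearest, and the genotypes overlapped at 2610035D17Rik.

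A stretch of 20.2 kb at chr4:82525826-82546021 touched Gm11266 and lay 19074 bp from Nfib, in peaks of 22.7 and 31.8 kb in cKO and 21.2 and 20.6 kb in WT. One of 19.8 kb at chr5:33687163-33706978 lay 14745 bp from Fgfr3, a growth factor receptor gene, in peaks of 20.3 and 23.8 kb in cKO and 20.7 and 19.8 kb in WT. One of 19 kb at chr3:34652999-34671962 touched Sox2ot and lay 537 bp from Sox2, a transcription factor gene of neural progenitors, in peaks of 19 and 21.6 kb in cKO and 20.9 and 19.9 kb in WT. The genotypes overlapped at the stretches near Fgfr3 and Sox2 and not at the one near Nfib.

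The peaks that held the stretches were also high. The authors' fold enrichment of the containing peak had medians of 6.0 and 5.86 in the cKO libraries and 6.23 and 5.01 in the WT libraries, against 4.0 and 3.82 over all peaks of the cKO lists and 4.16 and 3.72 over all of the WT lists. Read within each list, the containing peak stood above the list's median for 328 and 330 stretches in cKO and 326 and 327 in WT. The median percentile was 94.1 and 94.8 in cKO and 94.0 and 92.6 in WT. Height was not part of the rule, but it comes from the same calls as length.

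Stretches were unevenly spread over the chromosomes. Per 1000 shared intervals of at least 200 bp there were 5.78 over chromosomes 1 to 19. Chromosome 4, which holds Nfia, Nfib and Prdm16, had 42 stretches (10.3 per 1000), chromosome 15 had 20 (8.60) and chromosome 5 had 32 (8.34). The lowest rates were on chromosome 16 with 4 stretches (2.05), chromosome 6 with 8 (2.50) and chromosome 13 with 7 (2.67).

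Stretches also lay close to each other. Another stretch lay within 100 kb of 125 of the 330 (37.9%), against 89 of the next longest 330 (27.0%) measured among themselves. Joined at gaps of up to 100 kb, they formed 50 clusters, 34 of them with 2 stretches, 11 with 3 and 5 with at least 4, and 205 stretches stood alone. Of the 50 clusters, 36 lay in 1 gene. The shares were not tested, since both sets were cut from the same intervals by length.

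The largest cluster had 6 stretches at and beside Nfib, at chr4:82335395-82594370, with 132 of 259 kb in stretches. The gaps between its stretches were covered by other peaks at 52.9% and 53.6% in cKO and at 39.7% and 37.3% in WT. The cluster of 5 at Tcf4, at chr18:69501098-69625777, had 80.9 of 125 kb in stretches, and its gaps were covered at 65.9% and 61.9% in cKO and 54.1% and 38.8% in WT. The cluster of 5 at Nfia, at chr4:97782460-97927557, had 75.7 of 145 kb in stretches, with gaps covered at 63.0% and 60.7% in cKO and 50.4% and 39.8% in WT. In all 3 clusters both cKO libraries covered more of the gaps than both WT libraries.

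**Figure D3:**
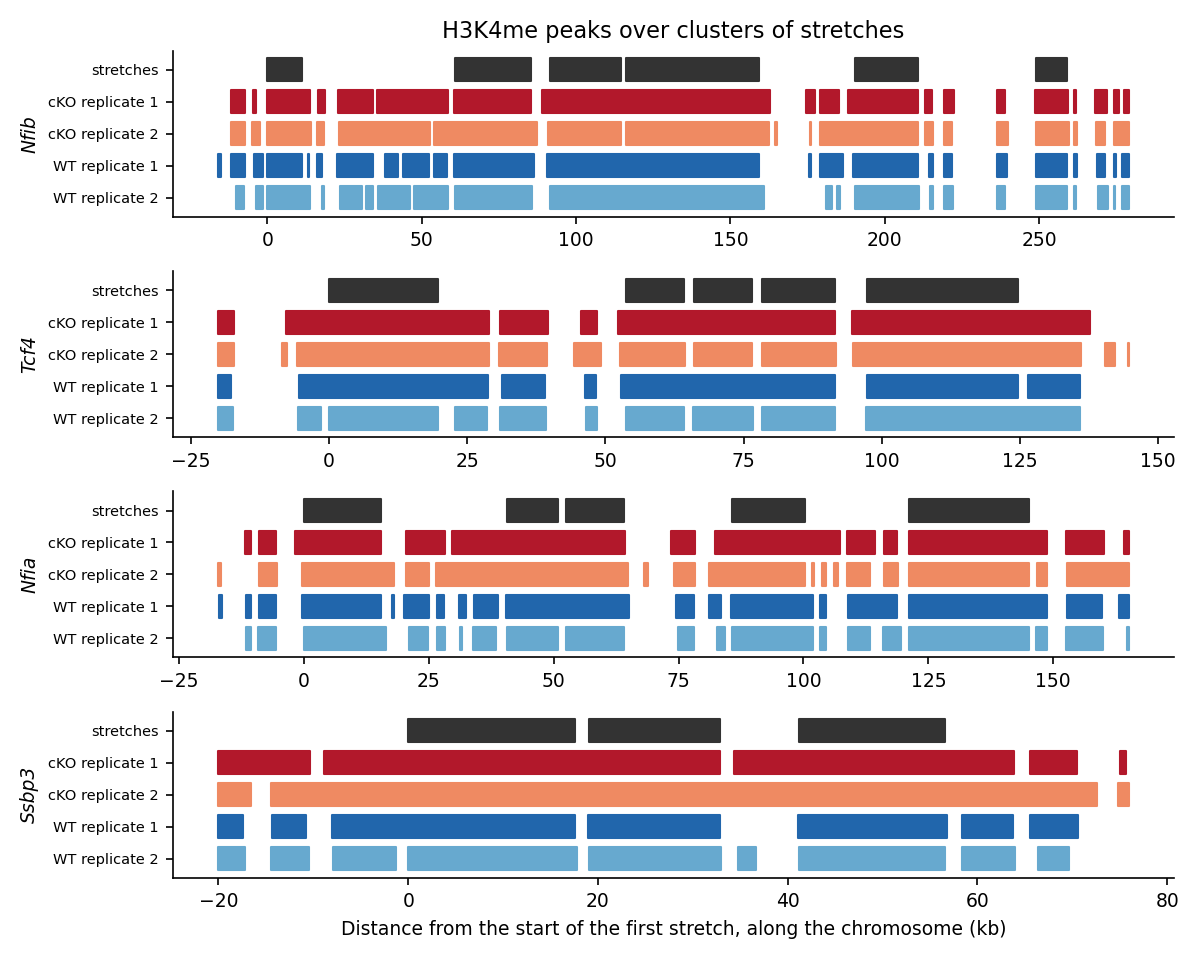
Horizontal bars mark the stretches (top line of each panel) and the peaks of cKO replicates 1 and 2 and WT replicates 1 and 2 over the clusters at Nfib, Tcf4, Nfia and Ssbp3, by distance in kb from the start of the first stretch. The stretches break where at least 1 library has a gap. At Ssbp3, cKO replicate 2 covers the whole cluster with 1 peak of 87.1 kb, while WT replicate 2 has 4 peaks, the longest 17.7 kb.

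Of the 50 clusters, 34 had this order of the genotypes, none had the reverse and 16 overlapped, among them those at Zmiz1, Msi2, Med13l and Macrod1 (named after their values were seen). A gap opens only where at least 1 library breaks. The WT libraries set 171 and 316 of the 660 stretch ends, against 104 and 70 in cKO. This order thus partly follows from the rule and was not tested. No matching share of gap coverage was computed for other intervals. For flank coverage, a different measure, both cKO libraries lay above both WT libraries at 49.2% of all shared intervals of at least 200 bp. The 75 gaps inside clusters had a median of 21.0 kb and 1.96 Mb in all, of which peaks covered 46.3% and 53.3% in the cKO libraries and 40.9% and 35.4% in the WT libraries. A gap was bridged in full by 1 peak 9 and 9 times in cKO and 6 and 2 times in WT, and 62 of the 75 gaps were open in every library. Of the bridged ones, 4 were closed in cKO replicate 2 alone, 2 in both cKO libraries and neither WT library, and 3 in replicate 1 of both genotypes and neither replicate 2. The cluster at Ssbp3, a partner gene of LIM-domain complexes, was named after its values were seen. Its gaps were covered at 85.2% and 100% in cKO and at 2.57% and 21.8% in WT.

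Beyond the stretches, cKO peaks ran further than WT peaks. The overhang is the length by which a library's peak passes the stretch at both ends together. It averaged 4.90 ± 1.26 kb in cKO and 1.86 ± 0.935 kb in WT (SD, n = 2 each), a difference of 3.04 kb and a ratio of 2.64. The libraries averaged 4.0 and 5.79 kb in cKO and 2.52 and 1.20 kb in WT, with medians of 0.792 and 2.17 kb in cKO and 0.508 and 0.216 kb in WT. A few long overhangs carried the means: at least 20 kb was reached by 15 and 17 stretches in cKO and by 10 and 2 in WT. The rule fixes that at least 1 library stops at each end, so the overhang is given without a test. For all shared intervals, which were made in the same way, the ratio was 2.27 (1.32 kb in cKO, 0.582 kb in WT), and for the next longest it was 2.08 (3.40 kb in cKO, 1.64 kb in WT).

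WT replicate 2 set more ends than any other library. Of the 660 ends, 104 and 70 were set by the cKO libraries and 171 and 316 by the WT libraries, with ties counted for each library at the same base. WT replicate 2, with the least covered genome, thus set 47.9% of them, and cKO replicate 2, with the most, 10.6%. The library that covers less of the genome stops the stretch more often, and the part of covered length in the overhang was not tested.

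**Figure D4:**
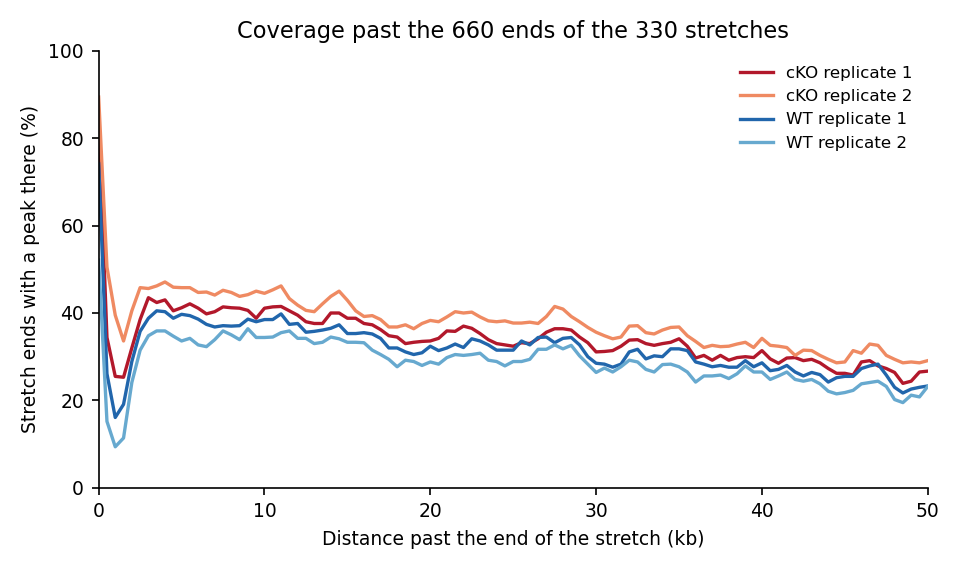
The percentage of the 660 stretch ends with a peak is drawn against the distance in kb past the end, for each of the 4 libraries. Past the end, coverage dips at about 1 kb (25.5% and 39.5% in cKO, 16.1% and 9.39% in WT) and is higher again at 5 kb (41.2% and 45.8% in cKO, 39.7% and 33.6% in WT).

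Peak coverage did not end with the stretch. At 50 kb past the end, 26.7% and 29.1% of ends in cKO and 23.3% and 23.2% in WT still had a peak. No peaks in any list lie closer together than 1269 bp, so a peak's end is always followed by that much bare sequence. Over the 10 kb on either side, peaks covered 42.4 ± 4.27% in cKO and 33.1 ± 3.6% in WT (SD, n = 2 each), a difference of 9.30 percentage points. An exact permutation test of the library means gave p = 0.33 (two-sided), the smallest that 2 against 2 libraries allow. The ratio was 1.28 for the stretches, 1.26 for the next longest (37.8% in cKO, 29.9% in WT) and 1.38 for all shared intervals (17.0% in cKO, 12.3% in WT). The stretches' neighbourhood was covered more than that of other intervals in every library. The genotype ratio differed little from that of the next longest intervals and was below that of all; these differences were not tested. The cKO lists cover more of the genome as a whole, as given above.

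**Figure D5:**
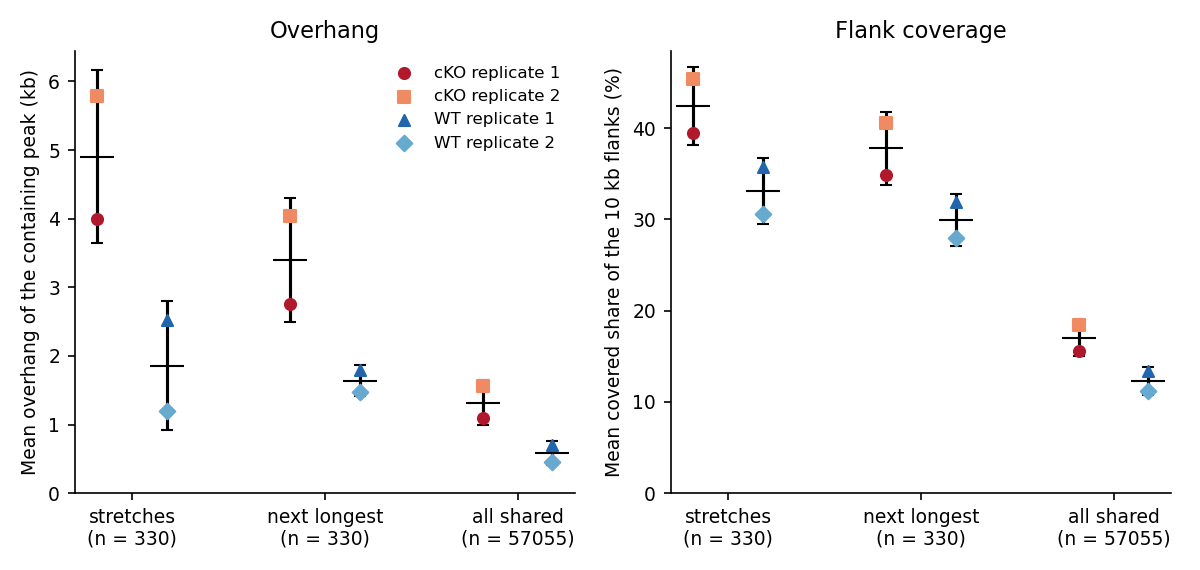
Points are the 4 libraries, and the bars with whiskers the mean ± SD of each genotype (n = 2), for the overhang in kb (left) and the covered share of the 10 kb flanks in % (right), over the stretches, the next longest intervals and all shared intervals. Each cKO library lies above each WT library in all 3 sets, with stretches at 39.4% and 45.4% in cKO and 35.7% and 30.6% in WT for the flanks.

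Longer stretches had more coverage around them in both genotypes. Stretches of 10 to 15 kb had overhangs of 4.04 kb in cKO and 1.45 kb in WT and flanks covered at 39.3% in cKO and 30.5% in WT. Those of 15 kb or more had overhangs of 7.01 kb in cKO and 2.87 kb in WT and flanks covered at 50.2% in cKO and 39.6% in WT.

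Counted stretch by stretch, both cKO libraries had more flank coverage than both WT libraries at 181 of 330 (54.8%), against 49.2% of all shared intervals of at least 200 bp. The opposite order held at 1 stretch (0.303%), against 3.48% of all. For the width of the containing peak the counts were 145 (43.9%), against 41.3% of all, and 6 (1.82%), against 5.08%. The shares with cKO above WT are near those of the genome at large and are not a result about the stretches. After each library was centred on its median, as in the test below, both cKO libraries had the higher flank coverage at 38 stretches (11.5%), against 16.5% of 48042 intervals, and the lower at 121 (36.7%), against 25.8%. The other 171 overlapped, so the order of the genotypes depends on the scaling.

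To ask which flanks moved beyond the general difference between the lists, flank coverage was tested with limma on log2(covered bases + 500), centred on each library's median, over 48042 shared intervals. None of the 330 stretches was called higher or lower in cKO at an adjusted p of 0.05, and 0% of all intervals were called in either direction (smallest adjusted p = 0.528). At an unadjusted p under 0.05 the limma test had 8 of the 330 stretches higher and 22 lower in cKO. Of all 48042 intervals, 2003 were higher and 2414 lower. Without centring these counts were 69 and 0 of the 330 stretches and 7572 and 104 of the 48042 intervals. After the lists were trimmed to 1 covered length they were 26 and 7 of 328 stretches and 1978 and 2013 of 42089 intervals. Whether the stretches differ from all intervals in these counts was not tested. The median log2 difference was -0.16 for the stretches and -0.05 for all. It was positive at 30.9% of the stretches and 45.9% of all intervals. This split turns on the centring: without it 91.8% of stretches and 86.5% of all intervals were positive (medians 0.32 and 0.43), and after the lists were trimmed to 1 covered length it was 64.0% and 51.3% (medians 0.08 and 0.02). The direction of the stretches' flanks thus differed between the scalings. A flank window holds at most 20 kb, so its coverage has a ceiling.

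The width of the containing peak, tested the same way over 57055 intervals, gave 0 calls among the stretches and 0% of all in either direction (limma, smallest adjusted p = 0.168 over all and 0.339 among the stretches). At an unadjusted p under 0.05 the limma test had 5 of the 330 stretches higher and 0 lower in cKO. Of all 57055 intervals, 2735 were higher and 1357 lower. Without centring the counts were 22 and 0 of the 330 stretches and 5137 and 356 of the 57055 intervals. The median log2 difference of width was -0.30 for the stretches and -0.12 for all, and without centring it was 0.09 and 0.27.

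Since no stretch passed, the single values below are a description. The 10 longest had log2 differences of flank coverage from -0.50 ± 0.18 (SE; Macrod1 and Flrt1) to 0.30 ± 0.25 (Sez6, which lay between 0.09 and 0.52 when either WT library was left out). The Nfix stretch was at 0.02 ± 0.16, with 10.7 and 12.3 kb of the 20 kb covered in cKO and 8.86 and 7.27 kb in WT. Bcl11a was at 0.21 ± 0.22, with 9.78 and 11.4 kb in cKO and 8.73 and 4.63 kb in WT; without WT replicate 2 it was at -0.09 and without WT replicate 1 at 0.50.

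Among stretches whose centred values did not overlap between the genotypes, 5 had the largest positive differences. Nrxn2, a presynaptic adhesion gene, had 2.51 and 4.28 kb of flank covered in cKO and 1.16 and 0.091 kb in WT (log2 difference 1.46 ± 0.50, SE), at chr19:6415392-6429350. Tfap2c, which encodes a transcription factor of cortical progenitors, had 2.36 and 2.76 kb in cKO and 0.447 and 0.313 kb in WT (1.33 ± 0.43), at chr2:172547379-172559671. In both, WT replicate 2 had the least. With 25 kb flanks the Nrxn2 difference was -0.01, and without WT replicate 2 it was 0.84.

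Myt1l, a zinc-finger gene of neurons, had 4.03 and 5.64 kb in cKO and 0.828 and 2.16 kb in WT (1.02 ± 0.42), at chr12:29694411-29705331. Pxylp1, a phosphatase gene of proteoglycan synthesis, had 1.37 and 2.17 kb in cKO and 0.142 and 0.551 kb in WT (0.97 ± 0.54), at chr9:96882631-96892804. Heg1, a gene of heart and vessel development, had 3.16 and 5.45 kb in cKO and 2.11 and 0.820 kb in WT (0.86 ± 0.37), at chr16:33731058-33742460. With 5 kb flanks the Myt1l difference was -0.33. Without 1 WT library the differences fell to 0.39 at Myt1l and 0.49 at Pxylp1 (replicate 1 left out) and to 0.49 at Heg1 (replicate 2 left out), and Myt1l without WT replicate 2 was at 1.64. At these 5 stretches the uncentred values did not overlap either. Their limma adjusted p lay between 0.528 and 0.589.

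The 5 largest negative differences began with Gli3, a zinc-finger effector of Hedgehog signalling that patterns the dorsal cortex. Its stretch of 20.1 kb at chr13:15537069-15557135 had 0.442 and 1.96 kb of flank covered in cKO and 1.90 and 2.1 kb in WT (-1.19 ± 0.49). Hes1, a Notch target that keeps progenitors dividing, had 0.945 and 2.56 kb in cKO and 2.59 and 2.23 kb in WT (-0.94 ± 0.40), at chr16:30058951-30070932. In both, cKO replicate 1 stood lowest of the 4 libraries, and without it the differences were -0.61 at Gli3 and -0.51 at Hes1.

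A stretch with no coding gene at chr9:37173130-37183380, nearest to Tmem218, had 0 and 1.54 kb in cKO and 0.992 and 0.744 kb in WT (-0.91 ± 0.67). This rests on cKO replicate 1: without it the difference was -0.01, and without cKO replicate 2 it was -1.80. Crtc3, a coactivator gene of CREB, had 4.15 and 4.91 kb in cKO and 6.46 and 4.54 kb in WT (-0.71 ± 0.22), at chr7:80651933-80662727. The Gse1 stretch at chr8:120373815-120384233 had 7.54 and 6.36 kb in cKO and 9.65 and 6.83 kb in WT (-0.69 ± 0.22). At all 5 the uncentred values overlapped between the genotypes. Their limma adjusted p lay between 0.528 and 0.677.

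Stretches at 4 other radial glia genes show both overlap and order between the genotypes. The Notch2 stretch of 33.0 kb was in peaks of 33.0 and 35.0 kb in cKO and 33.2 and 34.8 kb in WT. Its flanks had the smallest unadjusted limma p of the 330 stretches (0.00637, adjusted p = 0.528, log2 difference -0.63 ± 0.18), with 7.30 and 9.01 kb covered in cKO and 9.30 and 8.95 kb in WT. Uncentred, these flanks overlapped.

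The Notch1 stretch of 22.6 kb was in peaks of 22.8 and 26.7 kb in cKO and 22.6 and 23.9 kb in WT, with flanks of 10.4 and 12.5 kb covered in cKO and 7.31 and 7.64 kb in WT. Pax6, a homeobox gene of radial glia, had a stretch of 12.4 kb in peaks of 25.1 and 13.3 kb in cKO and 12.5 and 24.8 kb in WT. At Lhx2 the stretch of 12.5 kb at chr2:38356783-38369319 was in peaks of 16.9 and 17.2 kb in cKO and 16.7 and 12.5 kb in WT. Peak widths overlapped between the genotypes at Notch2, Notch1 and Pax6 and not at Lhx2. The Notch1 flanks did not overlap uncentred, but they did once centred (log2 difference 0.10 ± 0.18, SE). Of all shared intervals of at least 200 bp, 41.3% had both cKO peaks wider. Uncentred flank coverage was higher in both cKO libraries at 49.2%.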

How the data were processed

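H3K4me ChIP-seq of E15.5 mouse cortex gave 4 ChIP libraries, 2 cKO and 2 WT, grouped by the labelled genotype. The build was mm10 and the tools were MACS2 2.1.1, Bowtie2 2.2.8, cutadapt and FastQC, per the submitters' processing notes. How peaks were called, how reads were filtered and whether inputs served as controls is not given in the sources used here. The authors deposited 1 broad peak list per library, with a score, a fold enrichment (ratio) and the −log10 of both the p-value and the q-value per peak. These are the authors' own values and were used only to describe, rank or filter peaks within a list. Depth is unknown, so no counting error can be given for peak calls.

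Peaks on chromosomes 1 to 19 were merged, intersected and measured in Python 3.11.15 (numpy 2.4.6, pandas 2.3.3, scipy 1.17.1, matplotlib 3.10.9). limma 3.58.1 in R 4.3.3 (eBayes with trend, Benjamini-Hochberg over all intervals) used shared intervals of at least 200 bp, for flanks those with a mean of at least 500 covered bases, and a threshold of 0.05. A log2 difference is cKO minus WT on the log2(bases + 500) scale and understates thinly covered flanks. The code was tested on simulated data. Gene spans and promoters came from RefSeq on GRCm38.p6; 177 of 265 touched genes had a promoter window. P-values measure only the spread between these libraries, which may be technical. The planned exact test of the overhang, whose ends the rule sets, also gave p = 0.33.

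Values of some genes are not reported here. The stretches and gene lists were chosen with earlier results of these data known. Named were the 10 longest stretches, the 3 on either side of the length limit, the 5 largest differences in each direction without overlap, the 3 largest clusters, up to 4 touched genes per list, Prdm16, Pdzrn3 and the 5 longest stretches with no coding gene. Nfix, Prdm16 (promoters), Ssbp3, the genes named for several stretches and the last radial glia genes were named after their values were seen.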

Additional observations from a re-analysis of the deposited data

How the results depend on the processing

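Of 401 values under other settings, 375 were classed as kept, 10 counts or shares moved and 16 differences changed sign. For a count or share, kept means a similar value. For a difference it means the same direction and, where tested, the same side of the threshold. Since no stretch was called, kept at a single stretch means only that the sign did not change, whatever the size. No setting gave a limma call among the stretches. The number of stretches, 330, became 2127 with a minimum length of 5000 bp and 43 with 20000 bp. It was 638 when gaps of up to 2000 bp were merged, a setting added after seeing the data; gaps of up to 500 bp changed nothing, because the smallest gap in any list is 1269 bp. Leaving out 1 library in turn gave 340 to 413. The share touching a coding gene was 79.4% at 5000 bp, 93.0% at 20000 bp and 87.7 to 88.6% with 1 library left out. The share with a neighbour within 100 kb was 45.6% with 2000 bp gaps, 60.5% at 5000 bp, 27.9% at 20000 bp and 38.2 to 40.0% with 1 library left out. With distances of 50 and 250 kb it was 32.1% and 46.7%. With 1 library left out, the genotype difference of the overhang was 2.17 to 3.74 kb and that of flank coverage 6.28 to 12.3 points. With lists of equal covered length the flank difference was 6.31 points.

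The 16 values that changed sign belonged to single stretches, and the cause was not tested. Without centring, Nfib was at 0.23, Pmepa1 at 0.13, Foxo6 at 0.27 and the Gse1 stretches of 38.8 and 36.6 kb at 0.15 and 0.04. With equal covered length, Nfib was at 0.06 and the 38.8 kb Gse1 stretch at 0.02. Nfix was at -0.03 with a pseudocount of 100 bp, -0.02 with no filter, -0.23 with 25 kb flanks and -0.20 with a −log10 q of at least 3. With 25 kb flanks Bcl11a was at -0.07 and Nrxn2 at -0.01, and with 5 kb flanks Myt1l was at -0.33. Bcl11a ranged from -0.09 (without WT replicate 2) to 0.50, and Pmepa1 from -0.79 to 0.10 (without WT replicate 1).

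The libraries share replicate numbers, and across intervals the deviations of same-numbered libraries were hardly correlated (-0.0811 for flanks, -0.0449 for widths). With 2 libraries per genotype, these values cannot show whether same-numbered libraries also shared a litter or a processing day. The labels do not state it, and it was not tested. With a replicate block limma again gave 0 calls. For flanks its smallest adjusted p was 0.0787 over all intervals and 0.411 among the stretches. Before adjustment (p under 0.05) it had 8 of the 330 stretches higher and 21 lower in cKO. Of all 48042 intervals, 2069 were higher and 2164 lower. Unknown depth and 2 libraries per genotype limit every comparison.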

Other observations

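Outside chromosomes 1 to 19, the X chromosome had 555 intervals shared by the 4 libraries, of which 3 reached 10 kb.

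The stretches also held microRNA hairpins of the RefSeq table. Mir135b lay in a stretch at Lemd1 (chr1:132192058-132203197), Mir6352 in one at Epha4 (chr1:77490392-77511638) and Mir701 in one of those at Ttc28 (chr5:110995634-111009104). Mir7687 lay in the Gse1 stretch whose promoter is printed above. Mir1897 lay in a stretch beside Sox2 (chr3:34635302-34649265) and Mir3089 in one with no coding gene (chr2:30716055-30726735).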
